A study of Sus scrofa with 4 samples.

Results

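Differentiation of preadipocytes in culture is started by a hormone cocktail, and the day 2 against day 0 comparison covers the time that the cells spent in it. Subcutaneous preadipocytes of male Chinese Erhualian piglets aged 5 days were taken as confluent cultures before induction (D0) and after 2 days with dexamethasone, 3-isobutyl-1-methylxanthine and insulin (D2). The same study has libraries at day 4 (D4), after insulin maintenance medium, and at day 8 (D8), after growth medium, and their levels are given in that order after those of D0 and D2 where a gene has 4 values. Each stage was 1 library of total RNA without ribosomal RNA, made from equal parts of the RNA of 3 piglets, so 2 libraries carry the whole comparison, no spread between animals or cultures could be measured, and no p-value is given.

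Members were the mRNAs and long non-coding RNAs (lncRNAs) with an FPKM (reads divided by transcript length and library size) of at least 1 at D0 or D2. They were 9896 of 16192 mRNAs and 821 of 5615 lncRNAs, in files that list 31567 RNAs in all. Circular RNAs (circRNAs) were kept apart, because their level is in another unit, SRPBM (back-spliced junction reads divided by all mapped reads of the library). Of 8623 circRNAs, 5703 were above 0 at D0 or D2, and the 2142 with at least 10 junction reads in either library were compared. For mRNAs and lncRNAs the ratio is log2((D2 + 0.1)/(D0 + 0.1)) of FPKM, which understates the change of RNAs with low levels. An RNA is said to have risen or fallen where its level at D2 was at least 2-fold above or below that at D0.

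Dexamethasone acts on the glucocorticoid receptor, isobutylmethylxanthine blocks the phosphodiesterases that break down cAMP, and insulin acts through its own and the IGF1 receptor. In the textbook sequence, C/EBPbeta and C/EBPdelta appear first and then PPARgamma and C/EBPalpha, which together turn on the genes of fat storage. Confluent fibroblast-like precursors carry actin stress fibres and a contractile gene programme, and in mouse cell lines the cocktail is known to start some rounds of division before the cells leave the cycle.

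Reads behind the FPKM values came to 75387428 at D0 and 54987801 at D2, and back-spliced junction reads to 53207 and 43989. Protein-coding RNAs held 78.7% of reads at D0 and 70.8% at D2, while the signal recognition particle RNA held 12.4% and 17.1%. The median 95% counting interval of a log2 ratio (exact, Clopper-Pearson) reached 0.177 to each side for mRNAs with a larger FPKM of 1 to 5 and 0.0328 for those at 100 or more. Such intervals cover counting error only and say nothing of the spread between animals, cultures or library preparations.

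Of 16 listed precursor markers 12 passed the FPKM filter, of which 3 rose, 3 fell and 6 stayed within 2-fold. PDGFRA was at 75.8 FPKM at D0 and 189 at D2 and THY1 at 105 and 101, while ITGB1 fell from 319 to 126, CD44 from 37.0 to 10.6 and NT5E from 3.22 to 1.10. The other 4 markers were at most 0.351 FPKM in either library (CD34 at D2). Of 8 listed endothelial genes, CDH5 (0 in both), VWF (0.0137 and 0) and KDR (0.0153 and 0.018) were at or near 0. The 3 that passed the FPKM filter were PECAM1, which fell from 2.56 to 1.14 FPKM, ERG, which fell from 3.72 to 0.98, and EGFL7, which rose from 1.64 to 5.18. The endothelial list summed to 8.10 FPKM at D0 and 7.32 at D2. For leukocytes, LYZ was listed at 0 in both libraries and PTPRC, the common leukocyte antigen, at 0.0562 and 0.0175, with the 10 listed genes summing to 5.08 and 9.12 FPKM. The 3 of the 10 that passed the filter were all higher at D2, with CD163 at 0.270 and 1.42 FPKM (79 and 303 reads), MRC1 at 0.598 and 1.30 and CD14 at 3.14 and 5.64, of which 2 were past 2-fold. MYOG (0 and 0.0269) and MYH2 (0 and 0.0399) of skeletal muscle, HBB of red cells (0 in both) and 4 Schwann and neural genes, summing to 1.02 FPKM in each library, were also near 0. The only skeletal muscle gene past the filter was DES, also on the smooth muscle list, which fell from 436 to 37.7 FPKM. Of 6 epithelial genes 2 passed the filter, KRT5, which rose from 44.4 to 107 FPKM, and KRT8, at 4.46 and 8.25. Below the filter CDH1 was at 0.174 and 0.494 FPKM, KRT18 at 0.0554 and 0.278 and EPCAM at 0.504 and 0.904, and the list summed to 50.1 and 118 FPKM. Of 10 pericyte and smooth muscle genes 8 were tested, of which 5 fell and 2 rose, and the list summed to 6224 FPKM at D0 and 749.7 at D2. Most of that sum was ACTA2 (2907 and 324 FPKM), TAGLN (2767 and 297) and DES, given again below with the contractile genes. The 2 that rose were ABCC9 (10.3 to 73.3 FPKM) and KCNJ8 (3.60 to 11.1), while CSPG4 fell from 3.845 to 0.338. NOTCH3 was within 2-fold, at 1.32 and 1.10 FPKM. In RNA from whole cultures, fewer cells of a type and less RNA per cell cannot be told apart.

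Between D0 and D2, 701 mRNAs rose (7.08% of those tested) and 1196 fell (12.1%), or 19.2% in either direction. The counts of the gene lists below are to be read beside these shares. The median log2 ratio over all 9896 was -0.04, and the central 90 percent of mRNAs ran from -1.83 to 1.22. At least 4-fold changes were made by 176 mRNAs upward and 421 downward, and at least 8-fold changes by 64 and 116. In all, 8840 mRNAs had an FPKM of at least 1 in both libraries, 572 only at D0 and 484 only at D2. Falls outnumbered rises at each level, with 488 against 326 at 1 to 5 FPKM and 99 against 51 at 100 FPKM or more. Just inside the FPKM filter (a larger value of 1 to 1.05) 20 of 93 mRNAs were 2-fold apart, and just outside it (0.95 to 1) 25 of 89.

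**Figure D1:**
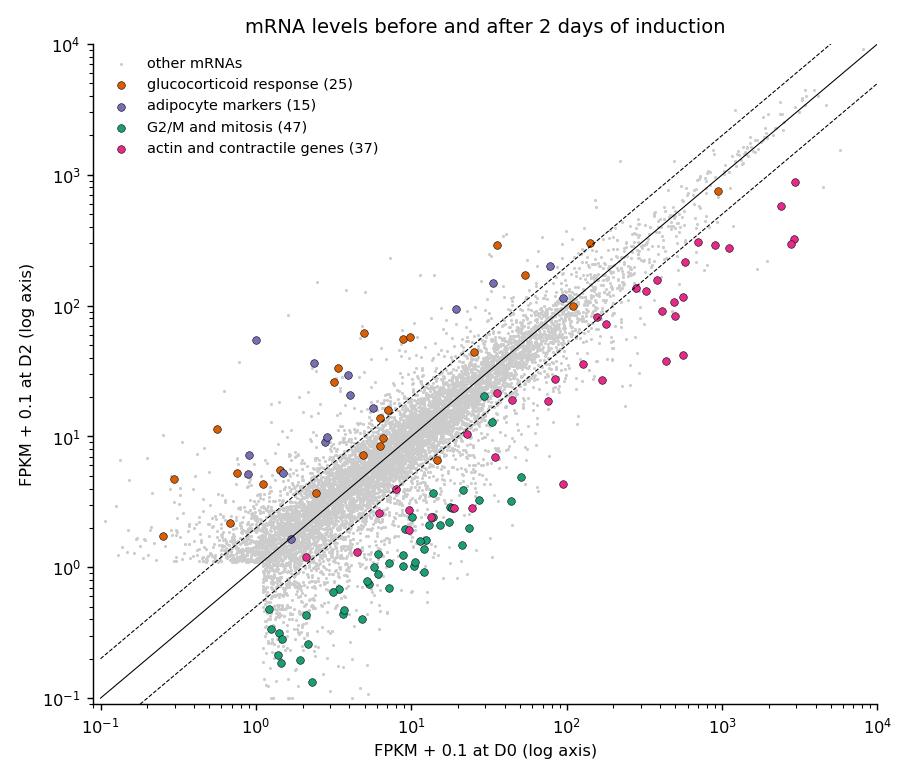
FPKM + 0.1 of each of the 9896 mRNAs tested at D0 (x axis) and D2 (y axis), both on log axes, with the solid line at equal levels and dashed lines at 2-fold. Most adipocyte markers (13 of 15) and glucocorticoid-responsive genes (17 of 25) lie above the upper dashed line, while 46 of 47 mitotic genes and 33 of 37 contractile genes lie below the lower one.

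Among mRNAs with at least 10 FPKM at D0 or D2, the largest rise was that of CCL19 on chromosome 10 (32110366 to 32112529, Sscrofa11.1), a chemokine that draws lymphocytes and dendritic cells. CCL19 was at 2.36 FPKM (54 reads) at D0 and 151 (2520 reads) at D2, then 40.6 and 19.8, a log2 ratio of 5.94, so its level at D2 was the highest of the 4 libraries. THRSP, a nuclear protein tied to lipid synthesis, on chromosome 9 (12479913 to 12484323), went from 0.908 to 55.0 FPKM and on to 182 and 138. SPON1, a secreted matrix protein, went from 1.51 to 84.1 FPKM, and was at 110 at D4 and 23.8 at D8. ALDH1A1, which makes retinoic acid from retinaldehyde, went from 0.675 to 36.9 FPKM and was then at 34.4 and 13.7. All 4 were picked for the largest ratios, so their low levels at D0 follow from that choice. They differed in whether D2 was their peak or a step towards a later one.

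DGAT2, which adds the last fatty acid to triglycerides, was at 0.152 FPKM (17 reads) at D0 and 10.1 (825 reads) at D2. Without a pseudocount its log2 ratio was 6.06, with a counting interval of 5.37 to 6.84, against 5.34 with it. The calprotectin subunits S100A8 (3.71 to 132 FPKM) and S100A9 (4.96 to 127 FPKM), abundant in neutrophils and monocytes, also stood among the 10, beside the leukocyte levels given above, and their part in this result was not tested. Both genes lie on chromosome 4, at 96209670 to 96210603 and 96236114 to 96238989. SULT1A3, a sulfotransferase, went from 7.16 to 231 FPKM and was back at 6.96 at D8. MT1A, a metal-binding metallothionein, went from 0.459 to 11.3 FPKM, and LOC102166944, which lies close to it on chromosome 6 (18660665 to 18662000), from 0.526 to 22.0.

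The largest falls were led by CRABP2 on chromosome 4 (93388198 to 93393861), which carries retinoic acid to the nucleus, at 32.8 FPKM (1445 reads) at D0 and 1.09 (35 reads) at D2, then 1.11 and 29.9. IL1RL1, the receptor of interleukin 33, went from 22.6 to 0.784 FPKM, and CD86, a costimulatory ligand best known on antigen-presenting cells, from 19.5 to 0.721. RGS3, which quenches G protein signalling, went from 12.5 to 0.441 FPKM, and SYNC, an intermediate filament protein of muscle, from 12.6 to 0.547. All 5 were higher again at D8, at 29.9, 9.92, 6.42, 9.14 and 3.50 FPKM in the order given. CRYAB, a small heat shock protein, went from 32.2 to 1.56 FPKM, and ENO3, the muscle form of enolase, from 15.9 to 0.735. CNN1, CTGF and IL11, the remaining 3 of the 10, are given with their groups.

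Glucocorticoid-responsive genes moved upward, and the best known of them moved far. Of 25 tested, 17 rose and 1 fell, with a median log2 ratio of 1.67 beside the -0.04 of all mRNAs. FKBP5, a chaperone that dampens the receptor, was at 4.88 FPKM at D0 and 61.2 at D2, then 77.4 and 38.6, a log2 ratio of 3.62. ZBTB16, a zinc finger repressor, was at 0.199 FPKM at D0 and 4.60 at D2, then 6.86 and 2.59. TSC22D3 (GILZ), which mediates part of the anti-inflammatory action, was at 3.26 FPKM at D0 and 33.5 at D2, then 23.6 and 31.7. All 3 stood above their D0 level in each later library.

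GLUL, glutamine synthetase, was already common at D0 and was at 35.5 FPKM at D0 and 288 at D2, then 412 and 127. KLF9, a transcription factor that the receptor binds directly, had 8.67 FPKM at D0 and 55.4 at D2, then 74.8 and 28.2. Its relative KLF15 rose from 0.657 to 5.20 FPKM. The kinase SGK1, which acts on ion channels, rose from 9.64 to 57.2 FPKM. PDK4, which restrains glucose oxidation, rose from 0.153 to 1.62 FPKM, and HSD11B1, which regenerates active glucocorticoid inside the cell, from 1.01 to 4.22 FPKM. RGS2, an inhibitor of G protein signalling, peaked at D2, at 3.08 FPKM at D0 and 25.9 at D2, then 10.9 and 3.39.

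Not every known target moved. The receptor itself, NR3C1, was at 6.21 and 8.42 FPKM, within 2-fold. DUSP1, a phosphatase that is also a classic target, was at 109 and 99.3 FPKM. ANXA1, an abundant anti-inflammatory annexin, was at 943 and 757 FPKM. ERRFI1, an inhibitor of the EGF receptor, was the member that fell, from 14.6 to 6.56 FPKM.

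Genes of cAMP signalling mostly stayed within 2-fold, but rises were more frequent than among all mRNAs. Of 21 tested, 5 rose (23.8%, beside 7.08% of all mRNAs), none fell and 16 stayed within 2-fold, with a median of 0.14. PRKAR2B, a regulatory subunit of protein kinase A, rose most, at 1.58 FPKM at D0 and 11.1 at D2, then 34.8 and 7.83, a log2 ratio of 2.74. Of the phosphodiesterases, which break down cAMP, PDE7B was at 1.54 FPKM at D0 and 7.27 at D2, then 3.81 and 0.649. PDE4B was at 1.72 FPKM at D0 and 7.03 at D2, then 5.84 and 1.67. Both were thus high at D2 and D4 and at or below their D0 level at D8. PDE3B, which insulin activates in fat cells, rose from 0.501 to 1.61 FPKM and reached 4.13 FPKM at D4. The kinase SIK1 rose from 1.11 to 3.33 FPKM. CREM, whose short forms repress cAMP-driven transcription, was at 5.20 and 3.18 FPKM, and PDE4D at 0.993 and 1.82 FPKM, both within 2-fold.

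Along the insulin pathway, 9 of 23 genes rose and 2 fell, with a median of 0.07. The insulin receptor INSR was at 1.11 FPKM at D0 and 3.61 at D2, then 5.68 and 1.39. Of its adaptors, IRS2 rose from 0.696 to 1.88 FPKM, while IRS1 was at 1.39 and 1.26 FPKM. PIK3R1, a subunit of phosphoinositide kinase, rose from 2.91 to 7.90 FPKM, and TBC1D4, which AKT phosphorylates to release glucose transporters to the surface, from 1.89 to 6.50 FPKM. FOXO1, a transcription factor that insulin excludes from the nucleus, rose just past 2-fold, from 2.42 to 4.96 FPKM.

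Both glucose transporters of the list were called, in opposite directions. SLC2A4, the insulin-responsive form of fat and muscle, was at 0.0924 FPKM at D0 and 1.53 at D2, then 8.80 and 7.58, a log2 ratio of 3.08. SLC2A1, the form that most dividing cells use, was at 20.1 FPKM at D0 and 3.46 at D2, then 7.81 and 18.1, a log2 ratio of -2.50. Among IGF genes the ligand IGF1 rose from 18.8 to 49.1 FPKM, and IGFBP5, one of its binding proteins, fell from 29.0 to 5.98 FPKM. The receptor IGF1R was at 2.16 and 1.21 FPKM. The second ligand, IGF2, was at 0.724 and 1.06 FPKM.

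Transcription factors of adipogenesis were above their D0 level in 17 of 18 cases, 6 of them by 2-fold or more, while 1 fell, and the median was 0.57. PPARG, the master regulator, was at 2.95 FPKM at D0 and 26.4 at D2, then 51.9 and 25.8, a log2 ratio of 3.12. CEBPA, its partner, was at 15.4 FPKM at D0 and 95.3 at D2, then 162 and 37.1, a log2 ratio of 2.63. Both had left their D0 level at D2 and were higher still at D4. CEBPD, one of the early factors, was at 140.4 FPKM at D0 and 299 at D2, then 178 and 165, so its highest value was that of D2. CEBPB, the other early factor, was at 20.6 and 22.4 FPKM, within 2-fold at this time. EBF1, which acts upstream of the late regulators, rose from 4.51 to 28.2 FPKM, and EBF2 from 0.791 to 2.13 FPKM. KLF4, an early activator of CEBPB, was the one that fell, from 5.40 to 2.53 FPKM. NR1H3, the liver X receptor, was at 13.7 and 19.6 FPKM, and STAT5A at 4.70 and 7.37 FPKM.

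Factors that hold cells in the precursor state showed no common direction, with 4 up, 4 down and 9 within 2-fold among 17. KLF6 fell from 30.6 to 6.06 FPKM and KLF7 from 12.1 to 2.44 FPKM. SFRP2, a secreted WNT antagonist, fell from 273 to 57.0 FPKM, and RUNX1, best known from blood and bone, from 5.39 to 2.27 FPKM. SNAI2, a repressor of epithelial genes, rose from 22.7 to 57.2 FPKM. The growth factor receptor PDGFRA, TWIST2 (30.0 to 60.1 FPKM) and TCF7L2 (1.32 to 2.94 FPKM) rose as well. ZNF521, a repressor of the adipocyte fate, was at 2.18 and 2.07 FPKM, and HES1, a target of Notch, at 12.2 and 9.92 FPKM.

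Adipocyte markers above the FPKM filter rose early. Of 23 listed markers 15 passed the filter, and the rest were below 1 FPKM at both D0 and D2. Of the 15, 13 rose and none fell, with a median of 2.14. In 11 of the 15 the higher of the D4 and D8 levels was again at least 2-fold above D2. PLIN1, which coats lipid droplets, was at 2.28 FPKM at D0 and 36.1 at D2, then 215 and 90.3. ADIPOQ, adiponectin, was at 3.80 FPKM at D0 and 29.6 at D2, then 179 and 158. LPL, which frees fatty acids from lipoproteins, was at 19.2 FPKM at D0 and 94.7 at D2, then 249.8 and 142. In each of these genes D4 held the highest level. FABP4, a fatty acid carrier, was at 77.5 FPKM at D0 and 201 at D2, then 853 and 1557, and so climbed at each step. APOE, which carries lipids out of the cell, was at 33.3 FPKM at D0 and 148 at D2, then 736 and 719. The lipases of stored fat rose as well, LIPE from 0.808 to 7.15 FPKM and PNPLA2 from 2.70 to 8.95 FPKM. CD36, a fatty acid receptor, rose from 3.90 to 20.5 FPKM, and GPD1, which supplies the glycerol backbone, from 0.787 to 5.08 FPKM. LIPE and GPD1 were below 1 FPKM at D0 and so passed the filter only through D2. PCK1, which acts in the making of glycerol phosphate from pyruvate in fat, was at 1.40 FPKM at D0 and 5.19 at D2, then 9.39 and 1.06, so that its level at D8 was below that at D0. Within 2-fold were PLIN2, a droplet coat of many cell types, at 94.9 and 115 FPKM, and CFD, adipsin, at 1.58 and 1.55 FPKM.

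Enzymes of fatty acid and triglyceride synthesis were mostly within 2-fold at D2. Of 22 tested 5 rose (22.7%, beside 7.08% of all mRNAs) and none fell (median 0.52). SCD, which makes monounsaturated fatty acids, was at 31.5 FPKM at D0 and 249 at D2, then 1053 and 772, a log2 ratio of 2.98. ACSL1, which activates fatty acids, was at 10.7 FPKM at D0 and 57.8 at D2, then 219 and 128. ACACA, the first committed step of synthesis, rose from 7.15 to 18.7 FPKM and ELOVL5, an elongase, from 19.0 to 41.1 FPKM. DGAT2, given above, was the fifth. FASN, the fatty acid synthase, was at 3.04 FPKM at D0 and 5.11 at D2, then 17.2 and 17.7. ME1, which supplies NADPH, was at 4.23 FPKM at D0 and 7.30 at D2, then 26.0 and 33.4. ELOVL6, another elongase, was at 3.67 FPKM at D0 and 4.75 at D2, then 39.1 and 94.0. For these last genes the larger part of the increase lay after D2, as it did for ACLY, which makes cytosolic acetyl-CoA and was at 51.3 FPKM at D0 and 54.6 at D2, then 156 and 136. At the other end AGPAT2, an enzyme of phosphatidic acid synthesis, was at 14.4 and 7.39 FPKM, and FADS2, a desaturase of polyunsaturated fatty acids, at 29.0 and 17.7 FPKM. GPAM, which starts glycerolipid synthesis, was at 1.88 and 3.07 FPKM.

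None of 24 genes of sterol synthesis and uptake changed by 2-fold, and their median was -0.10 (0.0062 when scaled to the protein-coding sum). SREBF2, the transcription factor that controls this pathway, was at 4.70 and 5.18 FPKM. Of the synthetic enzymes HMGCS1 was at 35.4 and 46.5 FPKM, SQLE at 27.8 and 27.7 FPKM and FDFT1 at 37.2 and 29.9 FPKM. MSMO1 was at 68.6 and 50.9 FPKM and DHCR7, which acts near the end of the pathway, at 5.28 and 3.98 FPKM. INSIG1, which holds the sterol-sensing machinery in the endoplasmic reticulum, was at 26.0 and 22.4 FPKM, and STARD4, a sterol carrier, at 4.64 and 3.31 FPKM.

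Of 24 genes of fatty acid oxidation 6 rose (25%, beside 7.08% of all mRNAs) and none fell (median 0.50). ECI1, a mitochondrial isomerase, rose from 12.1 to 48.5 FPKM and CPT2, of the mitochondrial inner membrane, from 4.38 to 10.9 FPKM. Of peroxisomal proteins ACAA1, the thiolase, rose from 8.59 to 28.1 FPKM, and PEX11A, which divides peroxisomes, from 0.915 to 2.17 FPKM. PPARD, the receptor that governs oxidation in many tissues, rose from 1.38 to 3.13 FPKM. CPT1A, which controls entry of long chains into mitochondria, was at 16.7 FPKM at D0 and 10.5 at D2, then 6.67 and 4.97. ACADM, the medium-chain dehydrogenase, was at 118 and 63.3 FPKM, within 2-fold. HADHA, of the trifunctional protein, was at 88.4 and 69.9 FPKM, and ACAA2, the mitochondrial thiolase, at 12.3 and 21.4 FPKM. The receptor PPARA was at 1.27 and 0.957 FPKM. The 68 nuclear genes of the respiratory chain had a median of -0.01 (0.10 when scaled to the protein-coding sum), with COX7A1, a subunit of cytochrome oxidase, the 1 that rose, from 15.5 to 45.7 FPKM, and NDUFB1, of complex I, the 1 that fell, from 363 to 109.9 FPKM. The 82 cytosolic ribosomal proteins had none in either direction and a median of 0.15, and 63 of them were above their D0 level (76 when scaled to the protein-coding sum).

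**Figure D2:**
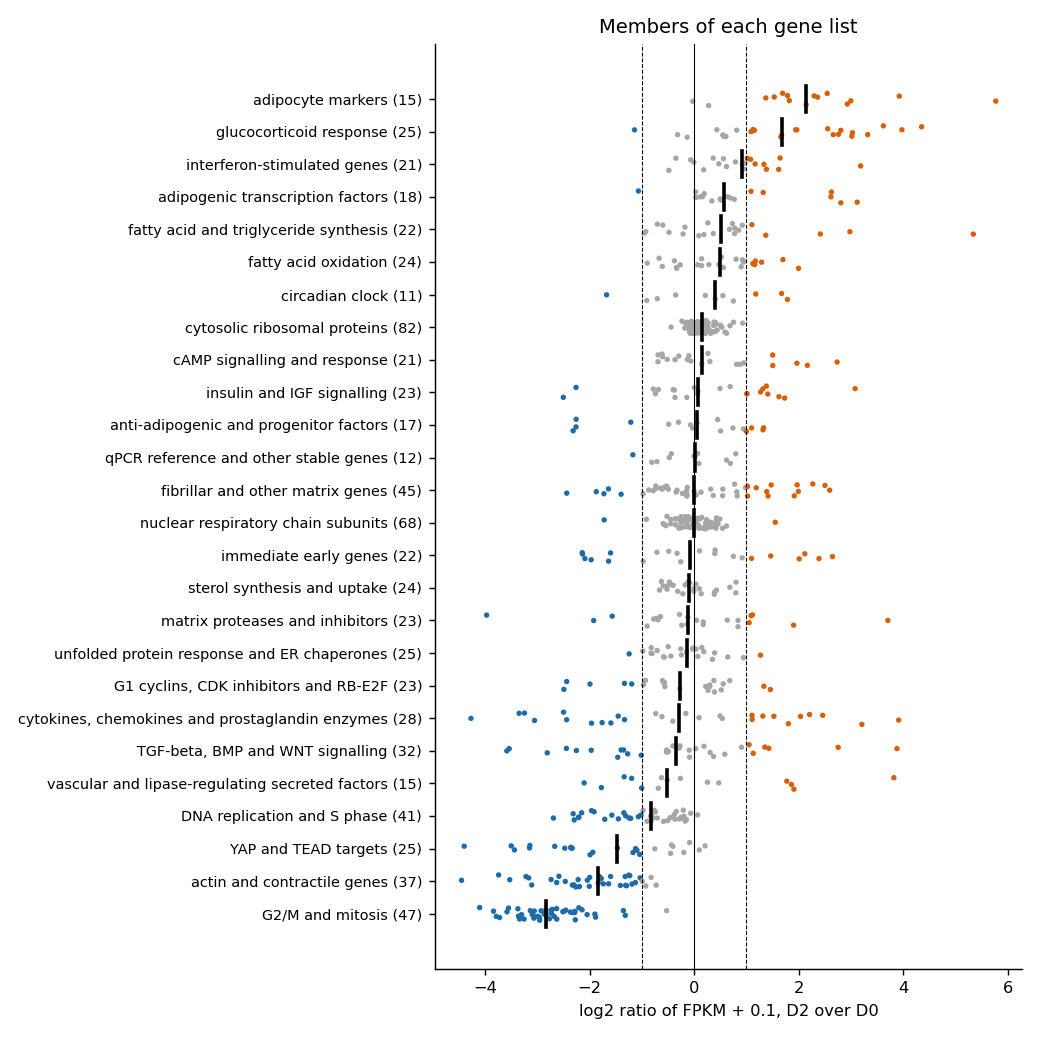
log2 ratio of FPKM + 0.1 at D2 over D0 (x axis) for each tested member of 26 gene lists (y axis, number tested in brackets). Points are genes, orange at 2-fold or more above and blue at 2-fold or more below D0, black bars are list medians and dashed lines mark 2-fold. Medians run from -2.83 for G2/M and mitosis to 2.14 for adipocyte markers.

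Genes of mitosis fell almost as a block. Of 47 genes of G2 and M phase 46 fell and none rose, with a median of -2.83, while 12.1% of all mRNAs fell. CCNB1, the cyclin that starts mitosis, was at 43.8 FPKM at D0 and 3.09 at D2, then 11.6 and 25.9, a log2 ratio of -3.79. CDK1, its kinase, was at 5.09 FPKM at D0 and 0.681 at D2, then 2.20 and 4.13. PLK1, a kinase of spindle assembly, was at 1.29 FPKM at D0 and 0.112 at D2, then 0.518 and 0.465. In all 3 the lowest level was that of D2. CENPA, the histone of centromeres, fell from 2.19 to 0.0333 FPKM, the largest ratio of the list. ANLN, which builds the cleavage furrow, fell from 21.1 to 1.38 FPKM. TOP2A, which untangles chromosomes, fell from 18.1 to 2.75 FPKM and was at 13.8 FPKM at D4. BIRC5, survivin, fell from 21.4 to 3.82 FPKM, and CCNA2, the cyclin of S and G2 phase, from 17.7 to 2.78 FPKM. The kinase AURKA fell from 8.68 to 1.13 FPKM and the kinesin KIF20A from 12.05 to 1.28 FPKM. CDC20 and UBE2C, which act in the destruction of cyclins, fell from 11.3 to 1.49 FPKM and from 8.95 to 1.86 FPKM. NUSAP1, a spindle protein, was within 2-fold, at 29.4 and 20.3 FPKM. The whole list summed to 541 FPKM at D0 and 92.2 at D2, then 252 and 354.

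Genes of DNA replication were less changed, with 17 of 41 down, none up and a median of -0.82. TK1, thymidine kinase, was at 36.8 FPKM at D0 and 5.61 at D2, then 20.6 and 25.6, a log2 ratio of -2.69. RRM2, which makes deoxynucleotides, fell from 9.13 to 1.90 FPKM. UHRF1, which keeps DNA methylation through replication, fell from 1.61 to 0.339 FPKM. Of the replicative helicase, MCM4 fell from 10.3 to 1.98 FPKM and MCM5 from 15.2 to 3.97 FPKM, while MCM6 was at 54.5 and 42.1 FPKM and MCM2 at 7.40 and 4.10 FPKM. PCNA, the sliding clamp, was at 68.1 FPKM at D0 and 59.0 at D2, then 118 and 65.2, and TYMS, thymidylate synthase, at 58.1 and 44.6 FPKM. Even so, 40 of the 41 were below their D0 level at D2. The list summed to 496 FPKM at D0 and 309 at D2, then 546 and 418, so that D4 lay above D0, which was not so for the mitotic genes.

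Around the G1 checkpoint 5 of 23 genes fell (21.7%) and 2 rose (8.7%), beside 12.1% and 7.08% of all mRNAs. The median of -0.27 had no stable sign, and was 0.24 with a filter of 5 FPKM. CCND1, the cyclin that growth factors induce, was at 14.4 FPKM at D0 and 2.57 at D2, then 2.79 and 7.27. E2F1, which turns on replication genes, fell from 3.30 to 0.753 FPKM and was at 3.48 FPKM at D4. RB1, the retinoblastoma protein gene, fell from 3.24 to 1.23 FPKM, and the CDK inhibitors CDKN2C and CDKN2D fell from 2.97 to 1.24 FPKM and from 5.92 to 0.971 FPKM. RBL2, the RB relative of resting cells, rose from 1.74 to 4.97 FPKM, and GAS1, a growth arrest gene, from 16.1 to 40.8 FPKM. CDKN1A, the p21 inhibitor, was at 51.4 and 73.6 FPKM, CDK4 at 54.0 and 62.9 FPKM and CCND2 at 34.9 and 43.0 FPKM, all within 2-fold. CCND3 was at 7.23 and 3.65 FPKM, close to 2-fold, and CCNE2 at 0.7995 and 1.22 FPKM.

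The contractile and actin cytoskeleton genes fell even at very high levels. Of 37 tested 33 fell, none rose and all were below D0, with a median of -1.83. ACTA2, smooth muscle alpha actin, was at 2907 FPKM at D0 and 324 at D2, then 225 and 2762, a log2 ratio of -3.16. TAGLN, transgelin, was at 2767 FPKM at D0 and 297 at D2, then 277 and 1987. CNN1, calponin, was at 94.3 FPKM at D0 and 4.22 at D2, then 2.39 and 24.2, a log2 ratio of -4.45. These genes were lowest at D4 and higher again at D8. DES, desmin, was at 436 FPKM at D0 and 37.7 at D2, then 4.05 and 35.7, and so stayed low. ACTG2, smooth muscle gamma actin, fell from 562 to 41.9 FPKM, and ACTN1, which cross-links actin, from 127 to 35.7 FPKM. The cytoplasmic actins fell too, ACTB from 561 to 117 FPKM and ACTG1 from 493 to 106 FPKM. TPM1, a tropomyosin, fell from 501 to 83.2 FPKM, MYL9, a myosin light chain, from 18.7 to 2.72 FPKM, and VIM, vimentin, from 2952 to 885 FPKM. SRF, the factor that drives many of them, was at 7.86 and 3.90 FPKM, just within 2-fold. FLNA, filamin, was at 155 and 81.8 FPKM, and TLN1, talin, at 35.6 and 21.5 FPKM.

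Targets of YAP and TEAD, which respond to stretch and spreading, fell in 17 of 25 cases with none up and a median of -1.47. CTGF was at 44.5 FPKM at D0 and 2.01 at D2, then 6.70 and 52.0, a log2 ratio of -4.40. CYR61, of the same family, was at 195 FPKM at D0 and 38.6 at D2, then 45.9 and 118. THBS1, thrombospondin, was at 1689 FPKM at D0 and 191 at D2, then 212 and 621. All 3 were higher at D8 than at D2, and CTGF was then above its D0 level. AXL, a receptor kinase, fell from 36.0 to 3.09 FPKM and ANKRD1, a classic target in muscle, from 1.72 to 0.0675 FPKM. AMOTL2, which binds YAP, fell from 30.9 to 7.69 FPKM. YAP1 itself fell just past 2-fold, from 55.3 to 26.8 FPKM, while its relative WWTR1 (TAZ) was at 5.25 and 6.09 FPKM and TEAD1 at 11.2 and 6.60 FPKM.

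**Figure D3:**
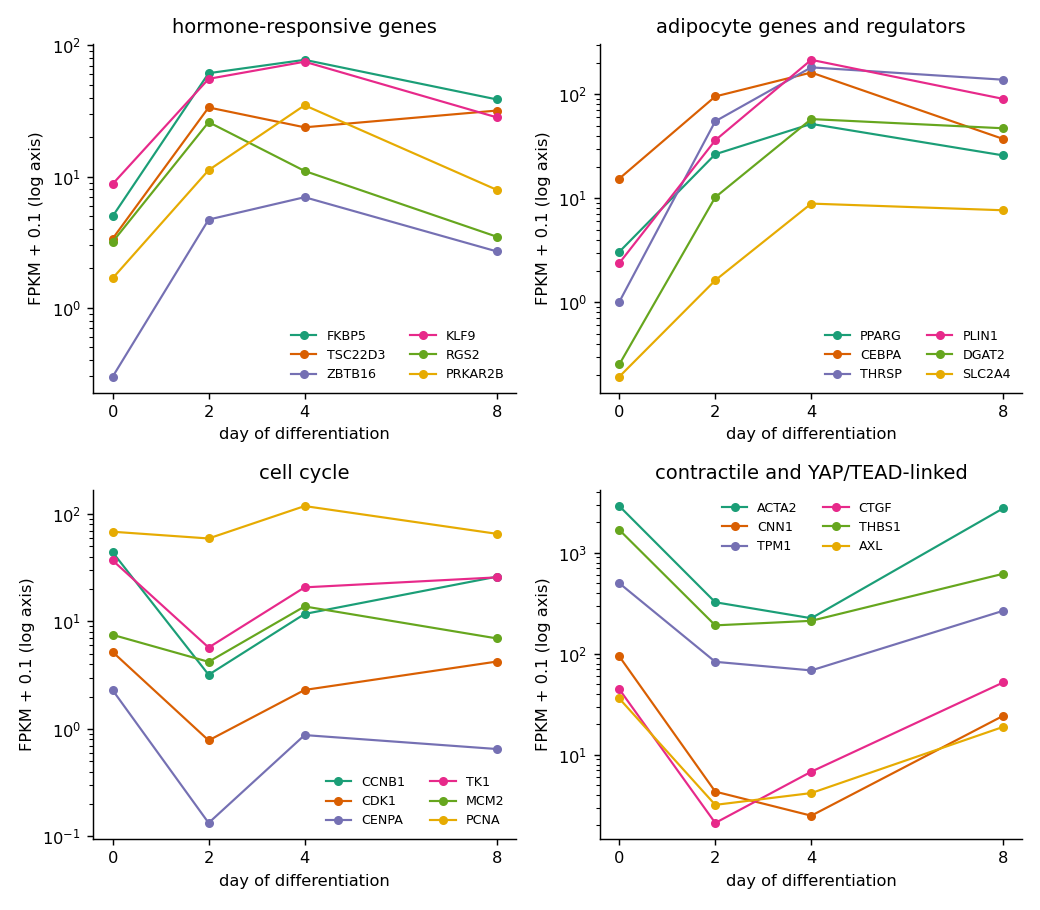
FPKM + 0.1 (y axis, log scale) of 24 named genes at D0, D2, D4 and D8 (x axis, days), 1 library a point, in panels for hormone-responsive genes, adipocyte genes and their regulators, cell cycle genes, and contractile and YAP/TEAD-linked genes. D2 is the low point for CCNB1 at 3.09 FPKM and a step on the way to D4 for PPARG at 26.4, while ACTA2 is at 324 at D2 and back at 2762 at D8.

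Matrix genes moved in both directions. Of 45 tested 12 rose (26.7%) and 5 fell (11.1%), beside 7.08% and 12.1% of all mRNAs, with a median of 0.00. COL4A1, a chain of the network collagen of basement membranes, was at 68.8 FPKM at D0 and 332 at D2, then 373 and 102, and COL4A2, the partner chain, rose from 25.6 to 96.9 FPKM. NID1, which links that network to laminin, was at 13.3 FPKM at D0 and 80.8 at D2, then 79.3 and 13.4. The laminin chains LAMB1, LAMA4 and LAMA2 rose from 65.5 to 261 FPKM, from 85.9 to 196 FPKM and from 4.42 to 12.5 FPKM, while LAMC1 was at 39.4 and 78.0 FPKM. COL3A1, a fibrillar collagen, rose from 491 to 1286 FPKM, and the proteoglycan LUM from 32.6 to 128 FPKM. COL5A3, a minor fibrillar chain, rose from 1.23 to 7.42 FPKM. The proteoglycan DCN was at 154 and 264 FPKM, and POSTN, periostin, at 11.1 and 6.59 FPKM. COL1A1, the main fibrillar collagen, was at 258 and 283 FPKM, FN1, fibronectin, at 162 and 202 FPKM, and LOX, which cross-links fibres, at 56.8 and 51.5 FPKM. The falls were those of COL8A1 (9.70 to 1.71 FPKM), the glycoprotein TNC (296 to 80.7 FPKM), the elastic fibre genes ELN (22.6 to 6.77 FPKM) and MFAP5 (135 to 43.3 FPKM), and COL11A1 (6.65 to 2.46 FPKM).

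Among 23 proteases and inhibitors 5 rose and 3 fell, and the median of -0.12 became 0.17 with a filter of 5 FPKM. MMP1, interstitial collagenase, was at 64.2 FPKM at D0 and 4.0 at D2, then 6.38 and 19.8, a log2 ratio of -3.97. PLAU, urokinase, fell from 84.4 to 28.4 FPKM and its receptor PLAUR from 60.6 to 15.9 FPKM. ADAMTS4, an aggrecanase, was at 2.32 FPKM at D0 and 31.5 at D2, then 32.8 and 3.06, a log2 ratio of 3.71. MMP2, gelatinase, rose from 99.3 to 371 FPKM, and MMP14, which activates it, from 125 to 271 FPKM. TIMP1, an inhibitor of these enzymes, was at 179 and 111 FPKM. Its relative TIMP3 was at 4.66 and 3.82 FPKM, and the proteases ADAMTS1 and ADAM12 were at 2.08 and 3.80 FPKM and at 3.87 and 3.27 FPKM.

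Cytokines, chemokines and prostaglandin enzymes had 10 of 28 up and 11 down, so that 7 stayed within 2-fold, and the median of -0.28 became 0.50 among genes with 1 FPKM in both libraries. IL11, a cytokine of the IL6 family, was at 26.1 FPKM at D0 and 1.26 at D2, then 0.679 and 1.11, and did not return. CCL2, which draws monocytes, was at 54.7 FPKM at D0 and 6.50 at D2, then 6.65 and 21.4. CXCL8 fell from 5.41 to 0.440 FPKM, IL1A from 2.90 to 0.216 FPKM and LIF from 1.87 to 0.249 FPKM. PTGS2, the inducible cyclooxygenase, fell from 3.79 to 0.896 FPKM, and PTGIS, the prostacyclin synthase, rose from 3.64 to 17.2 FPKM. PTX3, a soluble pattern recognition protein, was at 11.3 FPKM at D0 and 172 at D2, then 396 and 93.3, a log2 ratio of 3.91. The chemokines CXCL12 and CXCL14 rose from 0.108 to 1.82 FPKM and from 27.8 to 154 FPKM. TNFAIP6, which binds hyaluronan, rose from 30.6 to 76.4 FPKM, the adhesion molecule VCAM1 from 8.28 to 17.97 FPKM, and PTGDS, a prostaglandin D synthase, from 2.18 to 4.83 FPKM. PTGES, a prostaglandin E synthase, was at 13.4 and 10.1 FPKM. IL6 was at 5.96 and 8.71 FPKM, within 2-fold.

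Of 21 interferon-stimulated genes 8 rose (38.1%, beside 7.08% of all mRNAs) and none fell (median 0.92). IFIT1, which binds foreign RNA, was at 0.658 FPKM at D0 and 6.80 at D2, then 8.61 and 15.9. ISG15, a ubiquitin-like modifier, was at 29.7 FPKM at D0 and 93.0 at D2, then 77.1 and 155. Both were highest at D8. MX1, an antiviral GTPase, rose just past 2-fold, from 12.5 to 25.4 FPKM.

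Immediate early genes parted into 6 up and 6 down of 22, and the median of -0.08 became 0.033 when scaled to the protein-coding sum. FOS was at 1.49 FPKM at D0 and 9.83 at D2, then 9.66 and 4.46, and JUN at 9.42 FPKM at D0 and 2.06 at D2, then 2.83 and 7.92. These partners in the AP-1 factor thus had opposite directions in the D0 and D2 libraries. EGR1 rose from 0.529 to 3.19 FPKM and MYC from 3.67 to 10.3 FPKM, and DUSP6, which damps ERK signalling, from 3.36 to 14.9 FPKM. ATF3, a stress-induced factor, fell from 9.58 to 3.01 FPKM, IER3 from 26.6 to 6.17 FPKM and FOSL1 from 2.42 to 0.732 FPKM. MAFF, a small MAF factor, fell from 10.3 to 2.26 FPKM. The inhibitors of differentiation ID1 and ID3 were at 93.9 and 178 FPKM and at 793 and 484 FPKM.

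In TGF-beta, BMP and WNT signalling 11 of 32 genes fell and 6 rose (median -0.35). The WNT receptor FZD4 was at 2.18 FPKM at D0 and 33.5 at D2, then 60.4 and 9.97, a log2 ratio of 3.88. DKK2, a secreted WNT antagonist, was at 12.2 FPKM at D0 and 0.923 at D2, then 1.16 and 10.6, and SFRP4, another, fell from 26.1 to 3.64 FPKM. WISP2, a secreted protein of the CCN family, fell from 1.52 to 0.0390 FPKM. TGFBR3, betaglycan, was at 3.37 FPKM at D0 and 23.3 at D2, then 22.7 and 3.27. INHBA, the activin subunit, fell from 3.67 to 1.27 FPKM, and FSTL3, which binds activin, from 36.4 to 6.60 FPKM, while FST, which binds it too, rose from 0.830 to 2.28 FPKM. TGFBR1 and TGFBR2, the signalling receptors, were at 18.9 and 13.1 FPKM and at 21.2 and 21.6 FPKM. The ligand TGFB2 was at 1.66 and 1.56 FPKM and the inhibitor SMAD7 at 1.94 and 1.35 FPKM. BAMBI, a decoy receptor, was at 2.21 and 2.89 FPKM, and GREM1, a BMP antagonist, at 3.00 and 2.09 FPKM.

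Of 15 secreted factors that act on vessels or on lipases 4 rose and 5 fell (median -0.51). FGF10, a growth factor of fat precursors, was at 0.179 FPKM at D0 and 3.85 at D2, then 4.60 and 1.75. ANGPTL4, which inhibits LPL, was at 19.2 FPKM at D0 and 72.2 at D2, then 57.1 and 8.59, and its relative ANGPTL2 rose from 30.8 to 112 FPKM. VEGFA, the main growth factor of vessels, fell from 30.8 to 12.1 FPKM, and SEMA3C, a guidance factor, from 48.2 to 11.1 FPKM. FGF7 was at 151 and 209 FPKM and FGF2 at 22.0 and 18.3 FPKM. Of 11 clock genes 3 rose, PER1 (from 0.586 to 2.09 FPKM), CIART (from 0.955 to 3.53 FPKM) and CRY2 (from 1.10 to 2.61 FPKM), and 1 fell, NPAS2 (from 1.24 to 0.320 FPKM). NR1D2, a clock repressor, was at 9.88 and 14.5 FPKM, and NFIL3 at 25.3 and 15.5 FPKM.

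In the unfolded protein response 23 of 25 genes were within 2-fold, TRIB3 rose from 6.95 to 16.9 FPKM and CRELD2 fell from 18.4 to 7.71 FPKM. The chaperones HSPA5 (BiP) and HSP90B1 were at 349 and 197 FPKM and at 319 and 180.5 FPKM, and PDIA4, which forms disulfide bonds, at 60.1 and 59.4 FPKM. MANF was at 46.5 and 31.0 FPKM and DNAJB9 at 24.1 and 37.8 FPKM. Of the transcription factors ATF4 was at 211 and 233 FPKM, XBP1 at 125 and 125 FPKM and DDIT3 (CHOP) at 62.0 and 119 FPKM. ASNS, asparagine synthetase, was at 152 and 93.2 FPKM, and HERPUD1, of protein degradation at the endoplasmic reticulum, at 40.8 and 53.6 FPKM. Genes often used as references were within 2-fold in 11 of 12 rows, the exception being YWHAZ, which fell from 293 to 129.7 FPKM, and GAPDH was at 693 and 423 FPKM. RPLP0 was at 2346 and 3606 FPKM, PPIA at 944 and 679 FPKM and HPRT1 at 7.23 and 5.32 FPKM.

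With the filter of 1 FPKM at D0 or D2, lncRNAs were called far more often than mRNAs, at lower levels. Of 821, 180 rose (21.9%) and 222 fell (27%), or 49% in either direction, and the median ratio was 0.00. Their median level was 1.53 FPKM at D0 and 1.42 at D2, beside 7.08 and 6.80 for mRNAs, and 26 were listed at 0 at D0 and 45 at D2. The 286 annotated lncRNAs had 41 rises and 52 falls, the 318 intergenic ones assembled by the authors 85 and 107, and the 217 antisense ones 54 and 63. Just 400 of the 821 had at least 1 FPKM in both libraries. Of these 400, 37 rose and 40 fell, and of the 8840 mRNAs with at least 1 FPKM in both, 438 rose and 789 fell. The gap between lncRNAs and mRNAs was thus much smaller there.

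Falls among lncRNAs with at least 5 FPKM went further than rises. LOC100514834, an annotated lncRNA on chromosome 4 (75294209 to 75296319, minus strand), was at 39.5 FPKM (2254 reads) at D0 and 1.01 (42 reads) at D2, then 0.0889 and 8.63. The antisense lncRNA MSTRG.22314 on chromosome 2 (69273046 to 69313225, plus strand), which overlaps KEAP1 and S1PR5 on the other strand, was at 48.8, 1.81, 1.79 and 17.2 FPKM. KEAP1 was at 17.7 and 19.9 FPKM, so the overlapping gene was within 2-fold. MSTRG.146410 on chromosome 17 (54491694 to 54533892) went from 52.0 to 3.52 FPKM, and MSTRG.143415 on the same chromosome from 16.9 to 1.11. MSTRG.155049 on chromosome X was at 5.06 FPKM from 21 reads at D0 and was listed at 0 at D2 and D4, which against a floor of 3 reads is at least 5.11-fold lower.

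Rises were led by MSTRG.49742 on chromosome 5 (24874032 to 24878228, plus strand), at 1.78 FPKM at D0 and 9.37 at D2, then 14.9 and 7.24. It lies 2141 bases from SLC16A7, a monocarboxylate transporter on the same strand, whose mRNA was at 2.33, 10.1, 14.5 and 8.48 FPKM. At that distance an unannotated extension of the transporter transcript and a separate lncRNA cannot be told apart in these files. MSTRG.4076 on chromosome 1 went from 1.27 to 5.83 FPKM, and FOXO3, 123497 bases away on the same strand, from 1.34 to 5.43. MSTRG.52728, antisense to PPHLN1 on chromosome 5, went from 4.44 to 17.3 FPKM, while PPHLN1 was at 25.5 and 21.9. LOC106506626 (1.90 to 6.57 FPKM) and LOC102165926 (1.54 to 5.26) completed the 5.

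**Figure D4:**
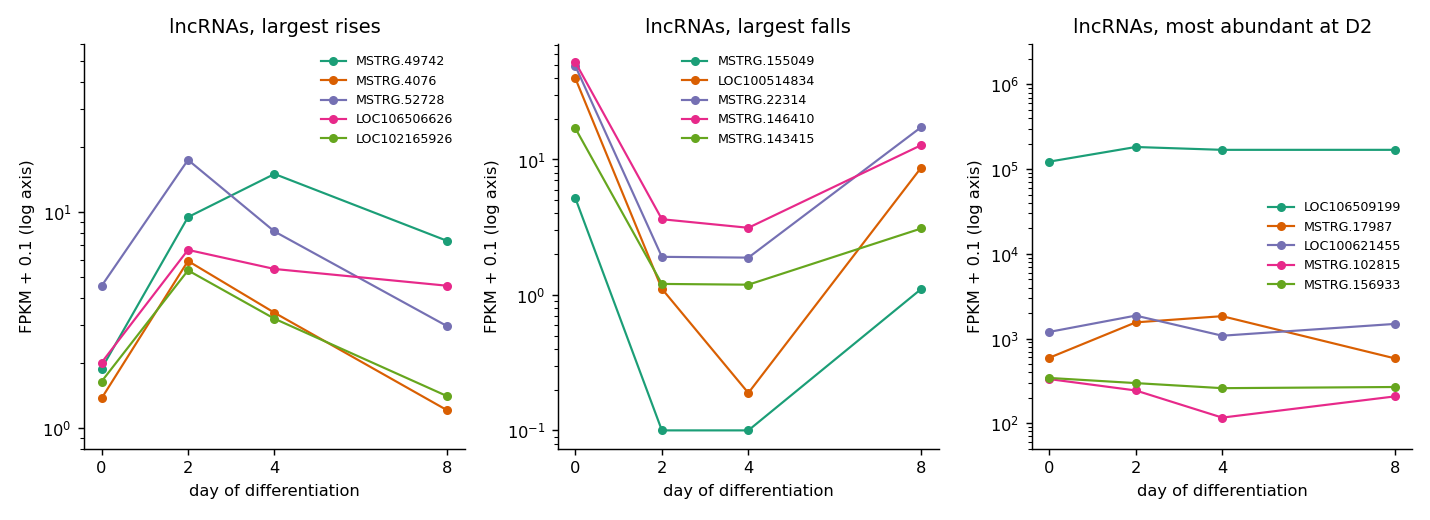
FPKM + 0.1 (y axis, log scale) at D0, D2, D4 and D8 (x axis, days), 1 library a point, for the 5 lncRNAs with the largest rise, the 5 with the largest fall and the 5 most abundant at D2. The falling lncRNAs are at their lowest at D2 or D4 and higher again at D8, and LOC106509199 lies far above all others, at 182459 FPKM at D2.

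A pair of lncRNAs carried much of the lncRNA reads. LOC106509199, an annotated lncRNA of chromosome 1 (236380010 to 236382894), held 4.99% of the D0 reads and 7.43% of the D2 reads (then 6.87% and 6.87%), which is 1.49-fold at D2. MSTRG.17987, annotated by the authors as antisense on chromosome 2 (6747825 to 6758624, minus strand), was at 593 FPKM at D0 and 1553 at D2, then 1838 and 582. It held 0.561% of reads at D0 and 1.47% at D2, when all antisense lncRNAs together held 0.911% and 1.80%. Along the same stretch of chromosome 2, the antisense MSTRG.18003 went from 3.86 to 9.85 FPKM and the annotated LOC100513133 (6803590 to 6811708) from 19.6 to 57.2.

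Antisense lncRNAs were set beside the gene on the other strand where that gene passed the filter, which left 137 pairs. In 30 pairs the antisense RNA rose, and the sense gene then rose in 2, fell in 3 and stayed within 2-fold in 25. In 39 pairs the antisense RNA fell, and the sense gene fell in 13, rose in 1 and stayed within 2-fold in 25. In the 68 pairs whose antisense RNA stayed within 2-fold the sense gene rose in 2 and fell in 11, and over all mRNAs 7.08% rose and 12.1% fell. Of these 2 risen sense genes, 1 was rna78601, a mitochondrial row of 960 bases marked protein-coding without a gene symbol, at 64.3 and 202 FPKM.

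CircRNAs are closed loops made when a downstream splice site joins an upstream one, and most share exons with an mRNA. Of 2142 compared, 571 were at least 2-fold higher at D2 (26.7%) and 792 lower (37%), or 63.6% in either direction. These counts rest on few reads, since the median circRNA had 15 junction reads in its larger library. With the further demand that the 95% counting interval of the ratio exclude equality, 498 rose and 674 fell. Many were seen in only 1 of the libraries, with 327 of the rises listed at 0 at D0 and 479 of the falls listed at 0 at D2. The authors list circRNAs from 2 junction reads, so a listed 0 can stand for a read below that limit. Bounds against a floor of 3 reads take each listed 0 as fewer than 3 reads, which was not tested. Some circRNAs with many reads were at 0 in a single library, such as ssc_circ_0005084 from ZEB1, with 229, 89, 0 and 48 reads at D0, D2, D4 and D8.

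Presence at later stages was uneven. Of the 327 that were at 0 at D0, 218 were found again at D4 or D8 and 109 were not, and of the 479 at 0 at D2, 245 were found later and 234 were not. Among the 51 circRNAs with at least 100 junction reads at D0 or D2, 3 rose and 8 fell. In total the SRPBM over all circRNAs at D2 was 0.936 of that at D0.

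The fall with most reads was ssc_circ_0006731, a circRNA of 153 bases span from ACTA2 on chromosome 14 (100882995 to 100883147, minus strand), with 312 junction reads at D0 and 0 at D2, D4 and D8. Against a floor of 3 reads it was at least 91.8-fold lower at D2, while the ACTA2 mRNA was at 2907, 324, 225 and 2762 FPKM. The circRNA was thus also listed at 0 at D8, where the mRNA was back. Next were ssc_circ_0006868 from ZRANB1 (114 reads at D0, then 0, 66 and 53), ssc_circ_0003825 from EDC3 (109, then 0, 49 and 50) and ssc_circ_0006727 from RSRC1 (100, then 0, 39 and 40). These 3 were listed at 0 at D2 only, and their hosts were within 2-fold, ZRANB1 at 14.2 and 8.40 FPKM, EDC3 at 12.7 and 8.98 and RSRC1 at 8.99 and 4.90. The last of the 5, ssc_circ_0008617, has no host gene in the files and went from 54 reads to 0.

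Of the rises, ssc_circ_0005080 from ZEB1 on chromosome 10 (42063516 to 42147610, plus strand) had 0 reads at D0 and 123 at D2, then 94 and 104, which is at least 46.4-fold higher at D2. Its mRNA, which codes for a zinc finger repressor of epithelial genes, was at 9.24 FPKM at D0 and 5.13 at D2. Ssc_circ_0003658 from SLA-1, a class I major histocompatibility gene with close paralogs, had 68 reads and ssc_circ_0007592 from METTL5 had 60 at D2, and both were at 0 in the other 3 libraries. Ssc_circ_0001893 from TGOLN2 had 0, 54, 59 and 41 reads and ssc_circ_0004288 from MAEA 2, 28, 5 and 14. Largest in reads among rises was ssc_circ_0005779 from LOC110256043 on chromosome 12, chosen after its values were seen, with 22 junction reads at D0 and 274 at D2, then 907 and 785. The gene LOC110256043 itself went from 2.06 to 21.7 FPKM.

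The direction of a circRNA was set beside that of its host mRNA. Ratios of SRPBM and of FPKM are scaled to different library totals, so small gaps between a circRNA and its host are not to be read. Of 527 circRNAs that rose and whose host mRNA was tested, the host rose in 32, fell in 51 and was within 2-fold in 444. Of 735 that fell, the host fell in 119, rose in 18 and was within 2-fold in 598. Where the circRNA stayed within 2-fold (733), the host rose in 21, fell in 75 and was within 2-fold in 637. Hosts within 2-fold thus made up 84.3% beside circRNAs that rose, 81.4% beside those that fell and 86.9% beside the rest. Over all mRNAs 19.2% were called in either direction, so these shares lie near that of mRNAs at large. By direction, hosts rose beside 6.07% of circRNAs that rose, 2.45% of those that fell and 2.9% of the rest. Hosts fell beside 9.68%, 16.2% and 10.2% in that order, while over all mRNAs 7.08% rose and 12.1% fell. CircRNAs of 1 gene share their exons and are not independent. Of 1368 host genes 951 had a single compared circRNA, and of the 417 with 2 or more, 111 had circRNAs in both directions.

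ZEB1 had the most circRNAs of any host, 12, of which 4 rose and 3 fell. The most abundant circRNA at D0 and at D2, ssc_circ_0005079 from ZEB1, had 855 junction reads at D0 and 559 at D2, a log2 ratio of SRPBM of -0.43 with an interval of -0.59 to -0.28. It starts at the same base as ssc_circ_0005080 but ends at 42079536, so 2 circRNAs with a common start had different courses. SMURF2, a ubiquitin ligase of TGF-beta signalling, had 9 of 10 circRNAs lower at D2, with 136 reads in sum at D0 and 29 at D2, and its mRNA fell from 20.5 to 7.06 FPKM. NID1 showed the reverse, with 3 circRNAs at 0 at D0 and with 18, 18 and 11 reads at D2, when its mRNA had risen. In ENAH, an actin regulator, 7 circRNAs summed to 552 and 543 reads while the mRNA fell from 69.2 to 33.6 FPKM, and ssc_circ_0004451 from LAMB1 had 153 and 166 reads while its mRNA rose from 65.5 to 261.

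**Figure D5:**
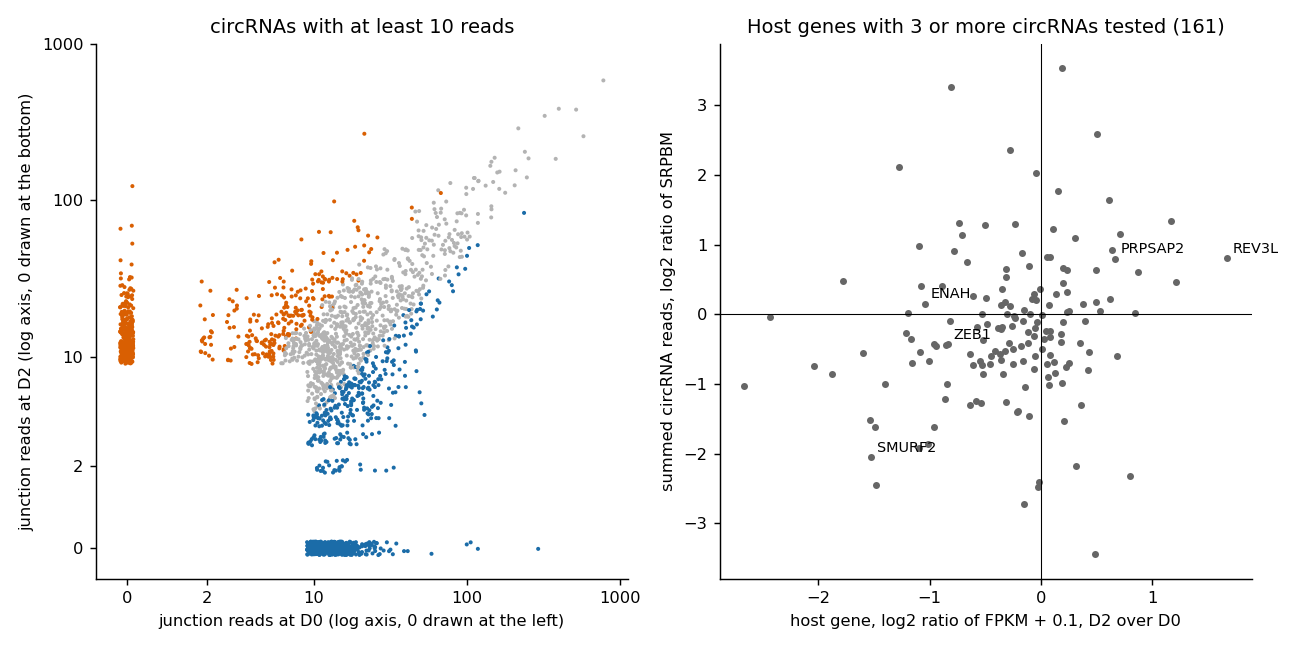
Left, junction reads at D0 and D2 (log axes, with 0 drawn at the edge and points jittered) of the 2142 circRNAs compared, orange where 2-fold or more higher and blue where 2-fold or more lower in SRPBM at D2. Right, log2 ratio of SRPBM of the summed circRNA reads (y axis) and of host FPKM + 0.1 (x axis) at D2 over D0 for 161 host genes with 3 or more circRNAs, of which 29 lie above 0 on both axes and 71 below 0 on both. SRPBM and FPKM are scaled to different library totals, so the zero lines of the axes are not on a common scale.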

How the data were processed

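Libraries of total RNA depleted of ribosomal RNA were sequenced from subcutaneous preadipocytes, with the RNA of 3 male piglets pooled in equal amounts at each of D0, D2, D4 and D8. Per the submitters' processing notes, reads were aligned with HISAT2 (version 2.0.5) and BWA, and the authors assembled lncRNAs and called circRNAs from back-spliced reads. The deposited values are FPKM per gene and, for circRNAs, a junction signal in SRPBM, on Sus scrofa 11.1 coordinates. SRPBM is relative to all mapped reads. FPKM is relative to another total, nearly all of it reads of the listed genes, so the units do not share a library size. From the deposited files, read numbers were recovered: FPKM of tRNA genes, whose length is their span, are whole multiples of 1 read, which gave the library totals, and for 22944 genes a length was found at which all 4 values are whole reads (98.9% to 99.1% of reads accounted for). One junction read was worth 6.42 SRPBM at D0 and 7.27 at D2. These numbers served only for counting intervals and floors (3 reads).

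Ratios used a pseudocount of 0.1 FPKM, a filter of 1 FPKM at D0 or D2 (10 junction reads for circRNAs) and a 2-fold threshold. With 1 library a stage no test was run, and no model was fitted. Members, gene lists and the naming rule were chosen with earlier results of these data known, so the counts are descriptions. Named were the 10 mRNAs with the largest rise and fall at 10 FPKM or more, 5 lncRNAs each way at 5 FPKM or more, 5 circRNAs each way at 20 junction reads or more, preset key genes of each list and its 2 largest rises and falls. Other list members named in the text were chosen after their values were seen. Some genes that the naming rule covers are not reported here. Python 3.11.15, NumPy 2.4.6, pandas 2.3.3 and SciPy 1.17.1 were used, and calls and read recovery were tested on simulated data.

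Genes were matched by symbol. The 13 mitochondrially encoded mRNAs of 1 list had no row under their symbols, and 19 rows of the mitochondrial genome are marked protein-coding without a symbol, 17 of them 75 bases or shorter, of which 18 passed the filter and 4 were called up. In 24 rows a spreadsheet had turned the name into a date. DLK1, NR4A1 and IDI1 were not analysed here. Genome sequence and promoters were not used here. The alternatives tried were other pseudocounts, filters and scalings.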

Additional observations from a re-analysis of the deposited data

Results flagged for a closer look

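Outside the mRNAs, lncRNAs and circRNAs, 5 rows of other RNA classes had at least 10 FPKM at D2 and were at least 2-fold above D0, and were set apart because no comparison of the report uses them. Only rises are given here, out of 256 tRNA, 79 miRNA and 25 pseudogene rows that passed the FPKM filter, beside smaller classes. Summed over all rows, tRNA genes were at 8889 FPKM at D0 and 6316 at D2, miRNA genes at 19069 and 19894 and pseudogenes at 804 and 575. MIR199A-1, a microRNA precursor on chromosome 9 (114533783 to 114533858), was at 46.9 FPKM (269 reads) at D0 and 115 (481 reads) at D2, then 73.8 and 61.3. The pseudogene LOC100738647 on chromosome 3 was at 2.67 FPKM (218 reads) at D0 and 20.1 (1193 reads) at D2, then 29.7 and 8.76. Among tRNA genes, TRNAR-CCG was at 13.4 and 29.1 FPKM (74 and 117 reads), TRNAQ-CUG at 8.11 and 18.7 (44 and 74 reads) and TRNAT-UGU at 3.82 and 12.7 (21 and 51 reads). Reads in a microRNA precursor or a tRNA gene in a library of longer RNA fragments do not measure the mature small RNA, and the tRNA genes have many near-identical copies among which reads can be split.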

How the results depend on the processing

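No paired analysis was possible because each stage has 1 library and no replicate number. The counts of called RNAs followed the filter on low values most. For the 701 mRNA rises the alternatives gave 434 with a pseudocount of 1, 1130 without a filter, 438 with at least 1 FPKM in both libraries and 375 with at least 5 FPKM, and for the 1196 falls 789 with at least 1 FPKM in both and 708 with at least 5. The 180 lncRNA rises became 85 with a pseudocount of 1, 839 without a filter, 37 with at least 1 FPKM in both and 22 with at least 5, and the 222 falls 136, 993, 40 and 29. The 571 circRNA rises became 1189 at 5 reads or more, 147 at 20 or more and 1198 without a filter, and the 792 falls 1300, 189 and 1300. The other alternatives (a pseudocount of 0.01, both rescalings, and for circRNAs the junction total and the counting interval) stayed within 1.5 times. Rescaling to the same protein-coding sum moved the median of all genes by 0.11 and gave 854 rises and 1050 falls, which lifted the share of rises among called mRNAs from 36.9% to 44.8%. Over 2 other pseudocounts and 2 scalings, none of the 226 named RNAs called at 2-fold (of 328 that passed the filter) changed sign, and 25 lost the call in at least 1. With a pseudocount of 1 these were CD163, CDKN2C, CRY2, EBF2, FOSL1, FOXO1, FST, IRS2, KLF4, MRC1, MX1, NPAS2, PDE3B, PER1, PEX11A, PPARD, PTGDS, RB1, RUNX1, TCF7L2, TUBA4A, TWIST2 and UHRF1, and with the protein-coding sum ENAH, KLF4 and YAP1. Among named RNAs within 2-fold, DDIT3, ID1, LAMC1 and SRF passed 2-fold in at least 1 alternative, and CFD, PDIA4, SQLE, TGFB2, THY1, XBP1 and ZNF521 changed sign. The medians of 9 of 26 lists changed sign over all alternatives, filters included: progenitor factors (-0.30 to 0.45), sterol synthesis (-0.10 to 0.0062), G1 genes (-0.56 to 0.24), matrix genes (-0.13 to 0.11), proteases (-0.12 to 0.17), cytokines (-0.29 to 0.50), immediate early genes (-0.29 to 0.052), reference genes (-0.0045 to 0.12) and respiratory chain subunits (-0.01 to 0.098). Scaled to the protein-coding sum, 9 rather than 6 genes of fatty acid oxidation and 11 rather than 8 interferon-stimulated genes rose. Depth limits mainly the circRNAs and the lncRNAs near 1 FPKM, and the lack of replicates limits every statement.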

Other observations

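Some further gene families were chosen after their values were seen. Over all mRNAs 7.08% rose and 12.1% fell at D2. Of 41 antioxidant and detoxification genes 17 rose and 1 fell, with a median log2 ratio of 0.75. CAT, the peroxisomal catalase, was at 39.0 FPKM at D0 and 339 at D2, then 547 and 137. SELENOP, the secreted selenium carrier, went from 40.7 to 354 FPKM, MGST1, a membrane glutathione transferase, from 32.5 to 238, GPX3, the secreted glutathione peroxidase, from 3.18 to 27.8, NQO1, a quinone reductase, from 22.7 to 90.4, HMOX1, which degrades heme, from 39.7 to 116 and FTL, the ferritin light chain, from 1217 to 3146. Of 16 peroxins, which build peroxisomes, 5 rose and none fell, and of 14 aldehyde dehydrogenases 4 rose and 1 fell. Other families were mixed or changed little. Of 14 integrin subunits 2 rose and 4 fell, and of 8 annexins none rose and 2 fell. Of 5 frizzled receptors 2 rose and 1 fell, and of 8 RGS proteins 2 rose and 3 fell.

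Of 6 tubulins 5 fell and 1 rose, with TUBB6 from 236 to 16.9 FPKM, TUBA1A from 257 to 24.8 and TUBA1B from 675 to 214, while TUBA4A rose from 0.384 to 1.09. Of 8 caveolae genes 5 fell and 1 rose. CAV1, which shapes the caveolar coat, was at 294 FPKM at D0 and 30.6 at D2, then 31.4 and 221, and CAV2 went from 55.2 to 7.87, while CAVIN2 rose from 1.87 to 5.50. Within the S100 family of calcium-binding proteins S100A8, S100A9 and S100A12 rose, the last from 14.0 to 172 FPKM, and 5 others fell, S100A6 from 766 to 188. The largest losses of share in the mRNA pool were those of LGALS1, galectin 1 (5722 to 1535 FPKM), and TMSB4X, which binds actin monomers (4435 to 807 FPKM).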
